A study of Mus musculus with 17 samples.

Results

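The Hox genes, the homeodomain transcription factors that give cells their address along the body and limb axes, were examined in gastrocnemius, the main calf muscle, by mRNA sequencing. Members were the protein-coding genes whose symbol is Hox followed by a cluster letter and a number alone, and 39 of the 45777 genes in the table met this rule. The HoxA cluster gave 11 genes (mouse chromosome 6), HoxB gave 10 (chromosome 11), HoxC gave 9 (chromosome 15) and HoxD gave 9 (chromosome 2). The rule itself is by name, and it was set with earlier results of these data known.

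The ALL group (n = 4) held male mice labelled 12 months old that ate a diet with 3% D-allulose, a rare sugar, for 12 weeks. The Middle-aged group (n = 6) held male mice of the same labelled age on the normal AIN-93 diet, and the Mature group (n = 7) held male mice labelled 8 weeks old on the normal diet. The strain is spelled C56BL/6J in one label and C57BL/6J in another. The labelled ages are those at arrival, so each group was older at sampling. Each library is treated as 1 mouse, housed singly, and p-values measure the spread between these mice. The study asked which genes of the muscle change with age and which of these respond to dietary allulose.

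Hox genes lie in their clusters in the order in which they are used along the body. Genes of low paralog number, at one end of a cluster, pattern the hindbrain and neck, and genes of high number pattern the lumbar region, the tail and the distal limb. Adult cells keep much of the Hox code they had in the embryo, and fibroblasts, tendon cells and muscle stem cells of different body sites can be told apart by it. Hox proteins bind DNA with partners of the TALE class (Pbx, Meis and Pknox), and Polycomb and Trithorax proteins keep each cluster silent or active. The miRNAs miR-10 and miR-196 are encoded inside the clusters and target Hox mRNAs.

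Libraries held 64018538 to 70544150 counts in ALL, 61832304 to 72640511 in Middle-aged and 49774656 to 63970155 in Mature. A floor of 3 counts corresponded to 0.0404 to 0.060 CPM (counts scaled to library size) across the libraries, which covers counting error only. The 14 myofibre markers summed to 135057 to 175552 CPM, and none of them was at 0 in all mice. The mitochondrial share of counts was 20.2% to 23.5% in 7 mice (1 ALL, 3 Middle-aged, 3 Mature) and 15.2% to 18.5% in the other 10 mice, and values of the Hox genes past the threshold are given within each of these classes. The hindlimb factor Tbx4 was at 0.796 to 1.91 TPM (a level per transcript length) over all 17 mice, whereas Tbx5, the forelimb factor, had 2 counts in each of 2 libraries and 0 in the rest. Pitx1, which acts upstream of Tbx4 in the embryonic hindlimb, had 0 to 13 counts per library and was not tested.

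Of the 39 Hox genes, 31 passed the filter on low counts and were tested, 6 were listed at 0 in every one of the 17 libraries, and 2 had counts but did not pass. The 6 genes at 0 were Hoxb1 and Hoxd1, used in the hindbrain and trunk, and Hoxb13, Hoxc12, Hoxd12 and Hoxd13, used at the tail end and in the foot. Hoxc13, known from hair and nail, had 2 counts in 1 ALL mouse, 8 counts in 1 Middle-aged mouse and 0 in all Mature mice. The skin marker list summed to 12.6 CPM in that ALL mouse and 15.9 CPM in that Middle-aged mouse, inside the range of the other libraries. Hoxd11, which with Hoxa11 patterns the middle segment of the limb, had 0 counts in ALL and 4 counts in 1 Middle-aged mouse. It had 12 counts in all over 3 of the 7 Mature mice. The span of Hoxd11 overlaps that of Hoxd10, and the counting rule for shared bases is not given in the sources used here. All 11 HoxA genes, 8 of 10 HoxB genes, 7 of 9 HoxC genes and 5 of 9 HoxD genes were tested.

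Levels between genes were compared in TPM, the authors' value per transcript length. Hoxc10, which patterns the lumbar level and the motor neurons of the hindlimb, was the most abundant, with medians of 58.7 TPM in ALL, 59.2 TPM in Middle-aged and 51.6 TPM in Mature muscle. Hoxd8, a trunk gene, followed at medians of 35.0 TPM in ALL, 30.8 TPM in Middle-aged and 31.8 TPM in Mature muscle. In Mature mice the ranges of Hoxc10 (46.9 to 56.6 TPM) and Hoxd8 (26.7 to 37.6 TPM) did not overlap. Hoxd9 (11.4 to 15.1 TPM) and Hoxa10 (10.2 to 13.6 TPM), the next in order, overlapped each other and neither Hoxd8 nor the fifth gene. These 4 genes held ranks 1 to 4 in all 3 groups.

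Below them the ranges over mice did not separate every gene from the next. In Mature muscle Hoxc11, Hoxc9 and Hoxa9 formed an overlapping set at 5.16 to 8.05 TPM, and Hoxa9 did not overlap Hoxa7 below it. From Hoxa7 (3.29 to 4.80 TPM) down to Hoxb2 (0 to 0.230 TPM) the range of each gene overlapped that of the next. Both genes of such a pair were measured in the same mice, and their difference within mice was not tested. Hoxa13, the only gene of paralog number 13 with steady counts and a gene of the distal limb, was at medians of 2.71 TPM in ALL, 2.95 TPM in Middle-aged and 1.85 TPM in Mature muscle.

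**Figure D1:**
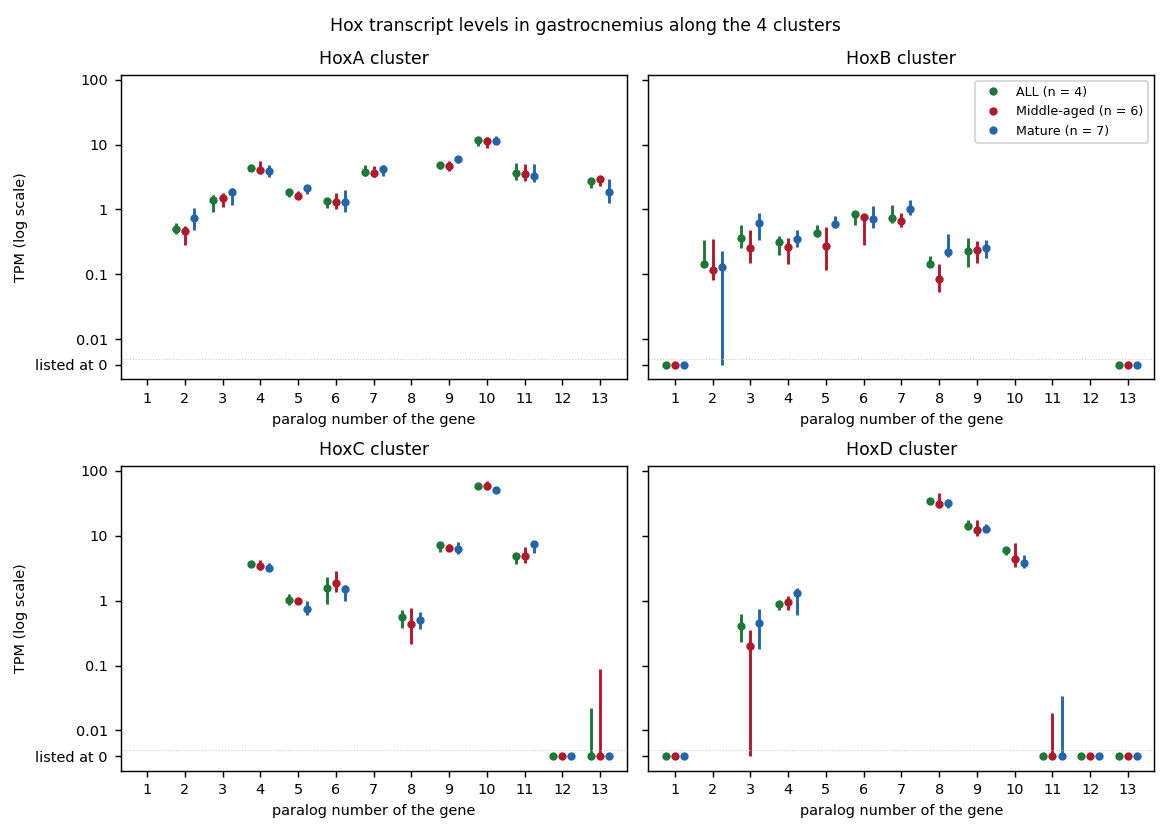
Hox transcript levels in TPM (log axis, with a separate position for genes listed at 0) against the paralog number of each gene, in 1 panel per cluster; points are group medians and lines run from the lowest to the highest mouse (ALL n = 4, Middle-aged n = 6, Mature n = 7). Hoxc10 is the highest at group medians of 51.6 to 59.2 TPM, and HoxB genes lie near or below 1 TPM.

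The clusters contributed very unequally. HoxC gave 43.1% to 46.6% of the summed Hox TPM in ALL, 44.6% to 49.8% in Middle-aged muscle and 42.1% to 45.2% in Mature muscle. HoxD followed with group medians of 33.4% in ALL, 29.8% in Middle-aged and 30.5% in Mature mice, and HoxA with 20.6%, 21.3% and 23.8% in the same order of groups. HoxB, whose genes include several of the neck and thorax, contributed 1.51% to 2.45% in ALL, 1.43% to 1.67% in Middle-aged muscle and 2.0% to 2.99% in Mature muscle. The Middle-aged and Mature ranges of the HoxB share did not overlap. This share rests on TPM, whose implied transcript length differed up to 1.75-fold between mice for Hoxb3. Genes of paralog numbers 9 to 13 made up a median of 65.4% of Hox TPM in ALL, 66.4% in Middle-aged and 64.9% in Mature mice, with overlapping ranges. The summed Hox TPM had medians of 174 in ALL, 163 in Middle-aged and 170 in Mature mice.

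Between Middle-aged and Mature muscle, genes of HoxA, HoxB and HoxC differed. Of the 31 tested Hox genes, 7 fell and 1 rose at an FDR under 0.05 (edgeR quasi-likelihood test over all 16731 tested genes), a share of 25.8% beside 10.3% of all genes tested. For the lower direction alone the background was 5.54% of genes, and for the higher direction 4.75%. Among the 8 tested HoxB genes 4 fell, of 11 HoxA genes 2 fell, of 7 HoxC genes 1 fell and 1 rose, and of 5 HoxD genes none passed. Median logFC (log2, Middle-aged over Mature) was −0.56 for HoxB, −0.10 for HoxA, 0.22 for HoxC and −0.04 for HoxD, beside 0.01 over all genes tested. At an unadjusted p under 0.05 there were 15 Hox genes, 11 lower and 4 higher, beside 24.3% of all genes. The groups did not overlap for 2 Hox genes, both lower, beside 4.04% of all genes (2.21% lower and 1.83% higher).

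Hoxb8, a gene of the thoracic level whose loss causes excessive grooming in mice, showed the lowest logFC of the 31. It was at 0.0915, 0.133 and 0.252 CPM (lowest, median and highest mouse) in Middle-aged muscle, against 0.303, 0.329 and 0.660 CPM in Mature muscle. Every Middle-aged mouse lay below every Mature mouse. The means were 0.151 ± 0.059 CPM in Middle-aged (SD, n = 6) and 0.440 ± 0.153 CPM in Mature mice (SD, n = 7), a logFC of −1.54 (SE 0.29, FDR = 0.00201, edgeR). These values rest on 6 to 16 counts per Middle-aged library and 16 to 40 per Mature library, so the size of the change is less certain than its sign. Hoxb8 lies at chr11:96279401-96285325 (GRCm38), and the annotation places no other gene on it.

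Hoxb5, which takes part in setting the position of the forelimb and in neural crest cells of the gut, was the other Hox gene without overlap. Its levels were 0.153, 0.313 and 0.565 CPM in Middle-aged muscle, against 0.587, 0.690 and 0.874 CPM in Mature muscle (lowest, median, highest). The highest Middle-aged mouse came close to the lowest Mature mouse. The logFC was −1.15 (SE 0.25, FDR = 0.00632, edgeR).

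Hoxb3, a gene of the hindbrain and pharyngeal region, was at 0.475, 0.642 and 0.884 CPM in Middle-aged muscle, against 0.758, 1.33 and 1.86 CPM in Mature muscle. The groups overlapped, with 1 Mature mouse inside the Middle-aged range. The logFC was −1.06 (SE 0.22, FDR = 0.00363, edgeR). The span of Hoxb3 (chr11:96307101-96347930) holds Hoxb4, the miR-10a gene and a long noncoding RNA, and the counting rule for shared bases is not given in the sources used here. Hoxb4 itself, known from blood stem cells, had a logFC of −0.53 (SE 0.25, FDR = 0.202).

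Hoxb7, a gene of the lower neck and thorax, stood just inside the threshold. It was at 0.456, 0.568 and 0.641 CPM in Middle-aged muscle, against 0.620, 0.808 and 1.05 CPM in Mature muscle, with a logFC of −0.60 (SE 0.19, FDR = 0.0489, edgeR). It remained under 0.05 in 10 of 26 alternative settings, and in 5 of the 17 that left out 1 mouse. Hoxb2, Hoxb6 and Hoxb9 did not pass, at logFC of 0.22, −0.25 and −0.01. Values were uneven along the cluster, with Hoxb9 at −0.01 beside Hoxb8 at −1.54, although the difference between these neighbours was not tested.

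Of HoxA, Hoxa2 and Hoxa9 fell. Hoxa2, the selector gene of the second pharyngeal arch and of part of the hindbrain, was at 0.328, 0.469 and 0.566 CPM in Middle-aged muscle, against 0.522, 0.751 and 1.02 CPM in Mature muscle (logFC −0.76, SE 0.20, FDR = 0.0197, edgeR). Hoxa9, which acts at the thoracic to lumbar level and in blood progenitors, was measured far more deeply, with 517 to 722 counts per Middle-aged library and 576 to 728 per Mature library. It was at 7.55, 8.52 and 9.71 CPM in Middle-aged muscle, against 9.57, 11.04 and 11.9 CPM in Mature muscle. The difference was small and even, at a logFC of −0.34 (SE 0.074, FDR = 0.00606, edgeR). Hoxa13 had the highest logFC of HoxA, 0.44 (SE 0.15), and did not pass (FDR = 0.0752).

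Of HoxC, Hoxc11 fell and Hoxc10 rose, although both belong to the lumbar and hindlimb end of the cluster. Hoxc11 was at 2.28, 2.66 and 3.43 CPM in Middle-aged muscle, against 2.91, 3.90 and 4.25 CPM in Mature muscle (logFC −0.42, SE 0.13, FDR = 0.0370, edgeR). Hoxc10 was at 58.2, 68.1 and 75.2 CPM in Middle-aged muscle, against 51.7, 56.7 and 63.6 CPM in Mature muscle (logFC 0.22, SE 0.067, FDR = 0.0399, edgeR). Both groups overlapped in each case. Hoxc11 passed in 15 of 26 alternative settings and Hoxc10 in 13, so neither call was stable, and no setting reversed either sign. Hoxc4 (logFC 0.30, FDR = 0.0538) and Hoxc5 (logFC 0.35, FDR = 0.10), genes of the neck and upper trunk, lay above 0 and did not pass.

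No HoxD gene passed, whatever its level. Hoxd8, the second most abundant Hox gene, had a logFC of 0.06 (95% interval −0.13 to 0.26), and Hoxd9 one of −0.04 (95% interval −0.25 to 0.17). Hoxd3, used at the first neck vertebrae, had a logFC of −1.06 with a wide error (SE 0.49, FDR = 0.188). It was listed at 0 in Middle-aged replicate 3 and at 21 to 41 counts in the other Middle-aged mice. The span of Hoxd3 overlaps Hoxd4, the miR-10b gene and long noncoding RNAs, and, as for Hoxb3, the counting rule for shared bases is not given.

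**Figure D2:**
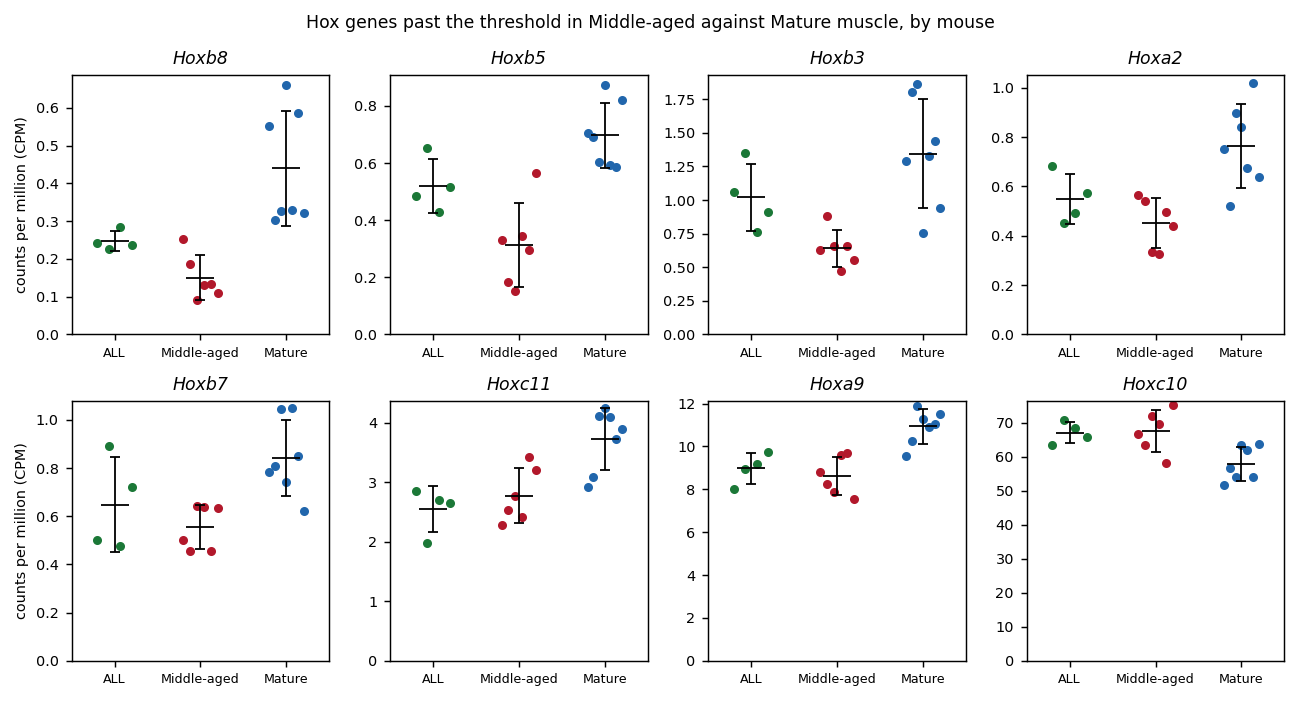
CPM of the 8 Hox genes past the threshold in Middle-aged against Mature muscle, with 1 point per mouse and the group mean ± SD in black; panels run from the lowest to the highest logFC and all axes start at 0. Middle-aged and Mature points do not overlap for Hoxb8 and Hoxb5 and overlap for the other 6 genes.

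Of these 8 genes, 5 passed in every one of 26 other ways of fitting the data. Hoxa2, Hoxa9, Hoxb3, Hoxb5 and Hoxb8 stayed under an FDR of 0.05 in all of them, with Hoxb8 between −1.75 and −1.38 and Hoxa9 between −0.38 and −0.32. Inside the mitochondrial classes the groups shrank to 3 Middle-aged against 3 Mature mice and 3 against 4, and the signs of all 8 genes stayed the same. Hoxb3 had a logFC of −1.50 (FDR = 0.00991) above the 20% share and −0.68 (FDR = 0.278) below it. Hoxb8 had −1.33 (FDR = 0.167) above and −1.72 (FDR = 0.0496) below. Hoxb5 had −1.29 (FDR = 0.0742) above and −1.04 (FDR = 0.181) below. Hoxa2 (FDR = 0.187 above, 0.208 below), Hoxa9 (0.179 above, 0.0582 below), Hoxb7 (0.220 above, 0.289 below) and Hoxc11 (0.158 above, 0.228 below) passed in neither class. Hoxc10 had a logFC of 0.35 (FDR = 0.0181) above and 0.11 (FDR = 0.645) below.

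Markers of other cell types moved in the same comparison, where 10.3% of all genes tested passed (5.54% lower and 4.75% higher). Of 12 Schwann cell markers 10 fell, led by Ugt8a at a logFC of −2.31 and Pmp22 at −1.84, and none was at 0 in all mice. Their summed level was 43.7 to 103 CPM in Middle-aged muscle, against 88.6 to 448 CPM in Mature muscle, where replicates 5 and 7 stood apart at 328 and 448 CPM. Of 12 endothelial markers 9 fell, with summed levels of 221 to 281 CPM in Middle-aged muscle, against 316 to 414 CPM in Mature muscle. Tendon markers fell in 5 of 10 cases, fibroblast markers in 3 of 14, satellite cell markers in 3 of 9 with 1 higher and smooth muscle and pericyte markers in 8 of 12 with 1 higher. Median sums in Middle-aged and Mature muscle were 48.2 and 69.3 CPM for tendon and 1223 and 1439 CPM for fibroblast markers. They were 62.5 and 66.4 CPM for satellite cell and 3432 and 3034 CPM for smooth muscle and pericyte markers. Of these last 12 markers, 11 had a logFC below 0 (median −0.46) and 1 was above 0, at 0.26. Their higher sum thus does not describe most of the list. In whole muscle, fewer cells of a type and less RNA per cell cannot be told apart, and the part of these cell types in the Hox values was not tested. Without Mature replicates 5 and 7, Hoxb8 was at a logFC of −1.68 (FDR = 0.00255), Hoxb3 at −1.15 (FDR = 0.00519) and Hoxb5 at −1.14 (FDR = 0.0185). Hoxb7 (FDR = 0.0743) and Hoxc11 (FDR = 0.113) no longer passed in that fit. The Mature mice kept in it had Schwann cell sums of 88.6 to 164 CPM, so it does not make the groups alike in these markers.

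**Figure D3:**
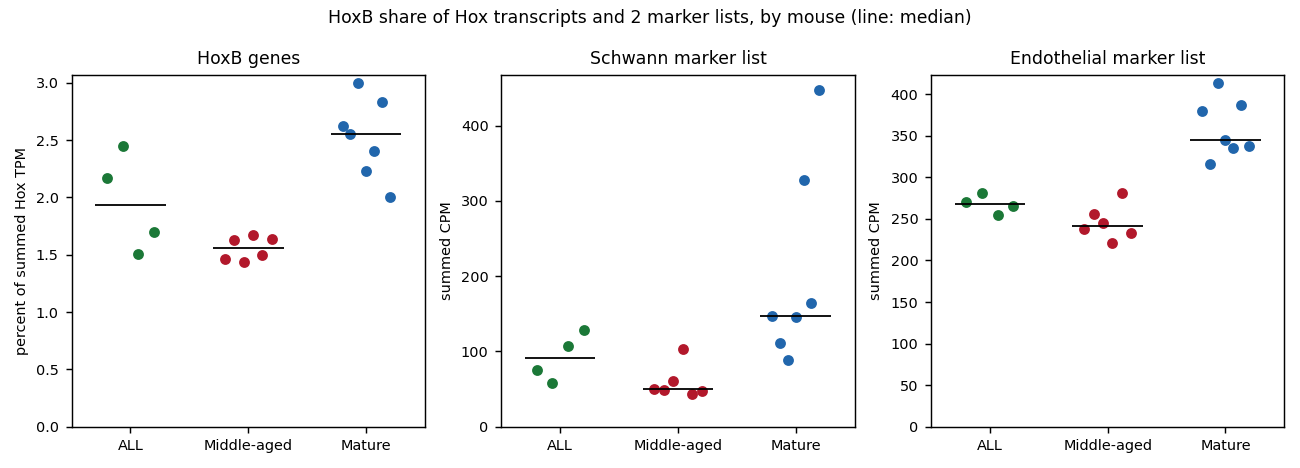
Percent of the summed Hox TPM contributed by HoxB genes (left) and summed CPM of the Schwann cell and endothelial marker lists (middle and right), with 1 point per mouse and the group median as a line. The HoxB share is 1.43% to 1.67% in Middle-aged muscle and 2.0% to 2.99% in Mature muscle, and both marker sums are also lower in Middle-aged mice at the median. Among sums not drawn, those of tendon, fibroblast and satellite cell markers are lower at the median. That of smooth muscle and pericyte markers is higher, although 11 of these 12 markers have a logFC below 0.

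Promoter sequences are shown for the 3 genes past the threshold that have an entry in the RefSeq promoter table (GRCm38.p6), which matched 22 of the 39 Hox genes through 24 promoters. Hoxb3, Hoxb5, Hoxb7, Hoxc10 and Hoxc11 had none. Each run is the 250 bases before the start that this table gives, read 5′ to 3′ on the strand of the gene. For Hoxa2 and Hoxa9 that start is the 5′ end of the annotated gene span, whereas for Hoxb8 it lies inside the span given above, so that the Hoxb8 run precedes an internal start. Capitals mark matches, on either strand, to TGATNNAT (a Pbx-Hox composite site), TGACAG (a Meis site), CCAAT and TATAAA.
Hoxb8, chr11:96281655-96281904, plus strand: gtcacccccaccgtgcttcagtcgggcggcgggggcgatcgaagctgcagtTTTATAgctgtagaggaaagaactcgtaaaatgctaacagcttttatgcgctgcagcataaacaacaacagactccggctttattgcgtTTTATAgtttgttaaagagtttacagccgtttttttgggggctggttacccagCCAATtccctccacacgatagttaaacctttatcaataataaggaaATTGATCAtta
Hoxa2, chr6:52164832-52165081, minus strand: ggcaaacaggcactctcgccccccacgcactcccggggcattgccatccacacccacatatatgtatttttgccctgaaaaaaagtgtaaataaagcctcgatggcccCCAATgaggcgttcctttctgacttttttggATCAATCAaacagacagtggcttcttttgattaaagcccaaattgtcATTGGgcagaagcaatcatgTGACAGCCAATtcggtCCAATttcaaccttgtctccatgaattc
Hoxa9, chr6:52227371-52227620, minus strand: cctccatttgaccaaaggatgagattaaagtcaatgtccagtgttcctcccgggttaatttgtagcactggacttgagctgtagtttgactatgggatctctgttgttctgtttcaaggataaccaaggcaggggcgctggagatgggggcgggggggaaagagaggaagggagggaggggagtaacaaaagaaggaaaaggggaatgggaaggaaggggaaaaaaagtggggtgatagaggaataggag

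Hoxb8 and Hoxa2 each held 1 match to TGATNNAT, found in 4 of the 24 Hox promoters (16.7%) and in 7.68% of all 32851 promoters of the same length. Hoxa2 also held the TGACAG match directly followed by CCAAT, 1 of its 4 CCAAT matches. CCAAT was found in 14 of 24 Hox promoters (58.3%) and 33.8% of all promoters, TGACAG in 2 (8.33%) and 15.9%, and TATAAA in 4 (16.7%) and 12.4%. None of the 4 motifs was found in the Hoxa9 run. The promoters of Hoxb8, Hoxa2 and Hoxa9 held 12, 6 and 3 CpG dinucleotides, beside a median of 12.5 over Hox promoters and 6 over all promoters. These matches describe the letters only.

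The miRNA genes of the clusters are shown because Hoxb8 mRNA carries the best known target site of miR-196. miRNAs were not measured in these libraries. The mature sequences fall into 2 seed families, with the seed (bases 2 to 8) in capitals. miR-196a is encoded beside Hoxb9 (chromosome 11) and Hoxc10 (chromosome 15), miR-196b beside Hoxa10 (chromosome 6), miR-10a in HoxB (chromosome 11) and miR-10b in HoxD (chromosome 2).
miR-196a-5p: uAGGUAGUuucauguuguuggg
miR-196b-5p: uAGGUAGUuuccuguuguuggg
miR-10a-5p: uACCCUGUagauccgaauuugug
miR-10b-5p: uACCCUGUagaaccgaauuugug
Hoxb8 site of miR-196a, with the bases opposite the seed in capitals, chr11:96284888-96284909, plus strand: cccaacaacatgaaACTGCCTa

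At this site 21 of 22 bases paired with miR-196a by the Watson-Crick rule and the remaining one formed a wobble pair within the seed. Over 20787 genes with a GENCODE 3′ untranslated region, the best ungapped match to miR-196a had a median of 13 paired bases, Hoxb8 had the most at 21, and the next gene had 17. An exact seed match to miR-196 (ACTACCT) was found in 9 of 39 Hox genes (23.1%) and in 6.14% of all genes. Of the genes that fell, Hoxa9 and Hoxb7 held such a match and Hoxb3, Hoxb5, Hoxa2 and Hoxc11 did not. The miR-10 match (ACAGGGT) was found in 4 of 39 Hox genes (10.3%), Hoxb3 among them, and in 12.6% of all genes.

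No Hox change with allulose was detected. No gene of the 16731 tested passed between ALL and Middle-aged muscle (0% called by edgeR, with 603 genes or 3.6% at an unadjusted p under 0.05, 2 genes called by DESeq2 and 4 by the likelihood ratio test), and no Hox gene passed by any of these tools. At an unadjusted p under 0.05 there were 3 Hox genes, all higher in ALL, beside 1.44% of all genes in that direction and 2.16% in the lower one. These were the HoxB genes Hoxb3, Hoxb5 and Hoxb8, which were the 3 with the lowest logFC of HoxB in Middle-aged against Mature muscle. Both comparisons use the same Middle-aged mice, so their values are not independent. The Schwann cell markers summed to 58.8 to 128 CPM in ALL and 43.7 to 103 CPM in Middle-aged muscle, the endothelial markers to 255 to 281 CPM in ALL and 221 to 281 CPM in Middle-aged muscle, and their part in the HoxB values was not tested. None of these markers passed, but all 12 Schwann cell markers had a logFC above 0 (median 0.73, with 5 at an unadjusted p under 0.05). The 10 macrophage markers all had a logFC below 0 (median −0.68, with 4 at an unadjusted p under 0.05), and of 9 tested adipocyte markers 7 did (median −1.84, with 6 lower and 1 higher at an unadjusted p under 0.05). Of 14 fibroblast markers 13 had a logFC below 0 (median −0.30, with 2 lower at an unadjusted p under 0.05).

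Hoxb8 was at 0.243, 0.227, 0.286 and 0.236 CPM in the 4 ALL mice, against 0.0915, 0.133 and 0.252 CPM (lowest, median, highest) in Middle-aged mice. The ranges overlapped through 1 Middle-aged mouse, at 0.252 CPM. The logFC was 0.71 (95% interval 0.01 to 1.41, unadjusted p = 0.0466, adjusted p = 1, edgeR). Hoxb5 was at 0.485, 0.652, 0.428 and 0.516 CPM in ALL mice, against 0.153, 0.313 and 0.565 CPM in Middle-aged mice, with a logFC of 0.73 (95% interval 0.13 to 1.34, unadjusted p = 0.0198, adjusted p = 1, edgeR). Hoxb3 was at 1.06, 1.35, 0.762 and 0.914 CPM in ALL mice, against 0.475, 0.642 and 0.884 CPM in Middle-aged mice, with a logFC of 0.67 (95% interval 0.15 to 1.18, unadjusted p = 0.0139, adjusted p = 1, edgeR). All 3 genes overlapped between the groups.

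For abundant Hox genes the intervals were narrow. Hoxc10 had a logFC of −0.01 between ALL and Middle-aged (95% interval −0.17 to 0.15), Hoxa9 one of 0.06 (95% interval −0.12 to 0.24) and Hoxa10 one of 0.07 (95% interval −0.11 to 0.25). For low genes they were wide, as for Hoxb2 (95% interval −1.08 to 1.25). Each of these intervals, narrow or wide, includes changes in both directions. Hoxd3 had the highest logFC, 1.07 (95% interval −0.08 to 2.22), with Middle-aged replicate 3 at 0 counts. No Hox gene was without overlap between ALL and Middle-aged, beside 0.478% of all genes.

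**Figure D4:**
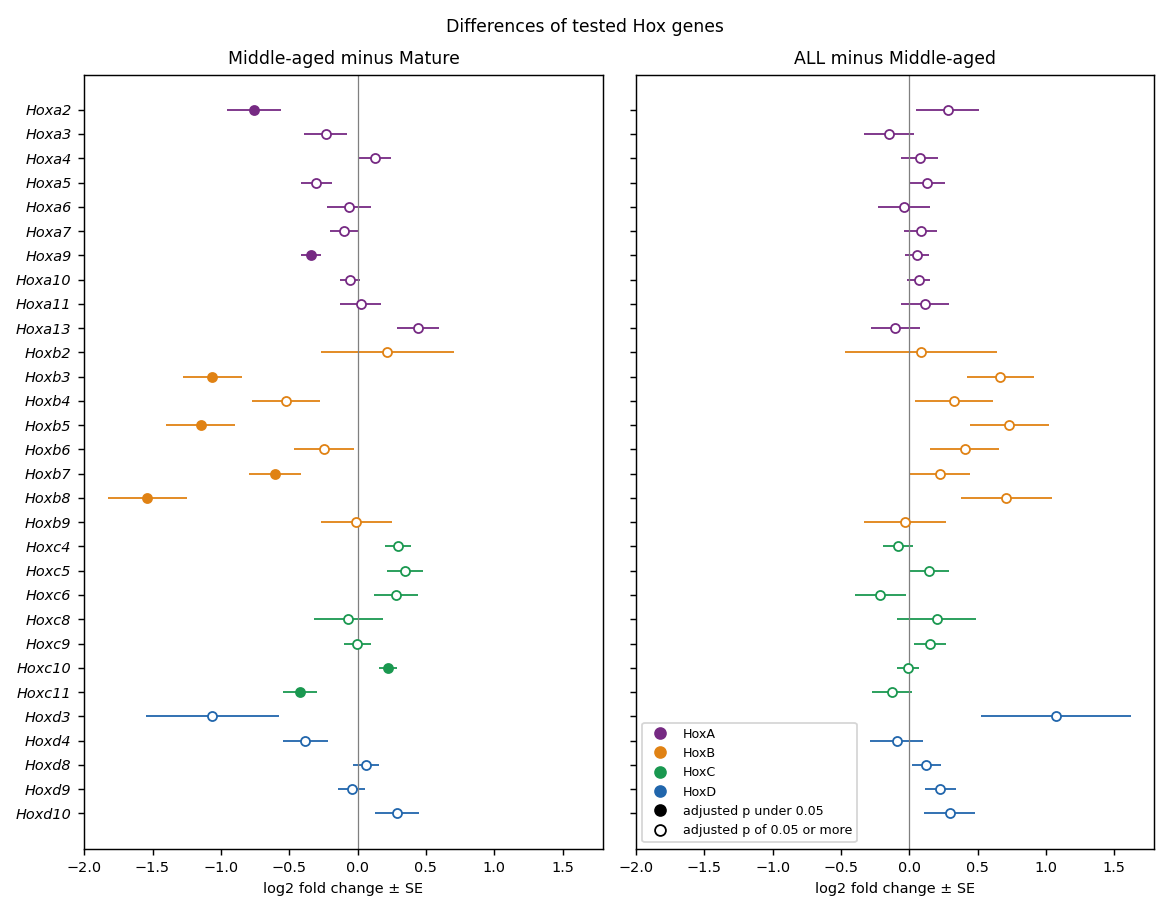
Log2 fold change ± SE of tested Hox genes, for Middle-aged minus Mature (left) and ALL minus Middle-aged (right), coloured by cluster and ordered by paralog number; filled points have an adjusted p under 0.05. Filled points are 8 on the left, with Hoxb8 the lowest at −1.54, and none on the right.

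ALL against Mature muscle shares mice with both other comparisons and is given beside them. Hoxc11 (logFC −0.55, FDR = 0.0281) and Hoxa9 (logFC −0.28, FDR = 0.0497) fell and Hoxc5 (logFC 0.49, FDR = 0.0488) rose, 3 of 31 Hox genes or 9.68% beside 6.5% of all genes (3.18% lower and 3.32% higher). Hoxc11 was at 2.85, 1.99, 2.70 and 2.65 CPM in ALL mice, all below the lowest Mature mouse at 2.91 CPM. The groups did not overlap for Hoxc11, Hoxb8 (both lower) and Hoxd10 (higher), beside 6.04% of all genes (2.84% lower and 3.2% higher). Hoxb8 had a logFC of −0.83 (FDR = 0.122) and Hoxd10, a lumbar gene, one of 0.58 (FDR = 0.0593). Without Mature replicates 5 and 7 neither Hoxa9 (FDR = 0.0984) nor Hoxc11 (FDR = 0.0711) passed. Hoxa9 and Hoxc5 each passed in 8 of 26 alternative settings and Hoxc11 in 21, and no Hox gene passed with a replicate block.

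Genes that work with the Hox genes were read in Middle-aged against Mature muscle, where 10.3% of all genes passed (4.75% higher and 5.54% lower). Of 8 tested TALE cofactors 1 fell, Pbx3, at 1.46, 1.94 and 2.20 CPM in Middle-aged muscle, against 2.53, 2.87 and 3.34 CPM in Mature muscle (lowest, median, highest). Its logFC was −0.62 (SE 0.11, FDR = 0.00118, edgeR), and the groups did not overlap. Meis1 had a logFC of 0.15 (SE 0.14). Of 16 tested limb patterning factors 1 fell and 1 rose. Tbx2, a T-box repressor that patterns the digits, was at 1.59, 2.0 and 2.30 CPM in Middle-aged muscle, against 2.85, 3.80 and 4.35 CPM in Mature muscle (logFC −0.91, SE 0.14, FDR = 0.000273, edgeR). Irx3, a homeodomain factor of the proximal and anterior hindlimb, was at 4.01, 5.0 and 6.56 CPM in Middle-aged muscle, against 1.78, 2.28 and 3.91 CPM in Mature muscle (logFC 0.94, SE 0.17, FDR = 0.00158, edgeR). Neither of them overlapped between the groups. Tbx4 had a logFC of −0.17 (SE 0.19, FDR = 0.638).

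Noncoding RNAs and flanking genes of the clusters were read against the same 10.3% of all genes, 4.75% higher and 5.54% lower. None of the 6 tested cluster noncoding RNAs passed. Hotair, which lies between Hoxc11 and Hoxc12 and is known for its link with Polycomb in human cells, had the smallest p of them, with 0.692, 1.04 and 1.61 CPM in Middle-aged muscle, against 1.13, 1.75 and 2.35 CPM in Mature muscle (logFC −0.67, SE 0.22, FDR = 0.0566, edgeR). Hoxa11os, the antisense partner of Hoxa11, had a logFC of −0.15 (SE 0.16) beside 0.02 (SE 0.15) for Hoxa11. The pair overlaps, and the strand setting of the counting is not given in the sources used here, so reads of one could have been counted for the other. Of 8 tested neighbours outside the clusters only Lnpk, an endoplasmic reticulum protein gene beside HoxD, passed (logFC 0.26, SE 0.075, FDR = 0.0305, edgeR). Of 23 Polycomb genes 1 rose, Bmi1, a core subunit of the PRC1 complex (logFC 0.21, SE 0.050, FDR = 0.0106, edgeR), and of 11 Trithorax and H3K27 demethylase genes none passed.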

How the data were processed

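Counts per gene and library were analysed as the authors deposited them, whole and not normalized. The TPM values, also deposited by the authors, are scaled to transcript length and were used only to compare levels between genes. The submitters' processing notes name FastQC 0.11.7, Trimmomatic 0.38, HISAT2 2.1.0, featureCounts and mm10, whereas the paper names other programs for alignment and quantification. The extraction text names adipose tissue and liver and the tissue label names gastrocnemius. Of 69 per-sample columns, 35 stayed out, 18 belonging to mice outside the labels and 17 holding FPKM.

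Genes with low counts were removed by filterByExpr (29046 of 45777), libraries were scaled by TMM, and the 17 mice were fitted together with the quasi-likelihood test of edgeR 4.0.16 in R 4.3.3 (prior count 0.125, common dispersion 0.0332). p-values were adjusted by Benjamini-Hochberg over 16731 genes, with FDR under 0.05 as threshold. Some genes counted in the totals are not reported here by name. The 95% intervals come from this fit. DESeq2 1.42.0, DESeq2 size factors, library size alone, no filter, the likelihood ratio test, a replicate block, the mitochondrial share as a covariate, a prior count of 2, only the 2 groups compared and each mouse left out were the alternatives. The fits without Mature replicates 5 and 7 and within the mitochondrial classes were chosen after seeing the data. The code was tested on simulated data. No library repeated another (chi-square divided by genes at least 19.5 over 42 within-group pairs). The Hox genes and the lists were chosen with earlier results of these data known. Named genes were all Hox genes and members of the cofactor, limb, noncoding RNA and neighbour lists, and up to 4 genes per other list with the smallest p. Positions and promoters are from RefSeq (GRCm38.p6) and 3′ untranslated regions from GENCODE (GRCm38), taking the longest per gene. Figures were drawn with matplotlib 3.10.9.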

Additional observations from a re-analysis of the deposited data

Results flagged for a closer look

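Among 93 checks of Hox genes within groups (31 genes in 3 groups), 2 mice stood apart from their group by the gap to the nearest mouse, and chance gives about 1 in 20. Hoxa13 was lowest in ALL replicate 3 at 1.65 CPM, with the nearest ALL mouse at 2.14 CPM. Hoxd8 was highest in Middle-aged replicate 6 at 51.7 CPM, with the nearest Middle-aged mouse at 39.0 CPM. Neither gene passed the threshold between ALL and Middle-aged or between Middle-aged and Mature muscle.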

How the results depend on the processing

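No alternative reversed the sign of a Hox gene with an unadjusted p under 0.05. In Middle-aged against Mature muscle, 1 Hox gene was higher and 7 were lower. The higher count was 3 with DESeq2, 2 with the likelihood ratio test, 2 with the mitochondrial share as a covariate, 0 with no filter and 0 with only the 2 groups. The lower count was 1 above and 1 below the 20% mitochondrial share, where the higher count was 0 below it, and all genes called were 1049 above and 456 below, beside 1721. Leaving out each mouse gave 1310 to 1816 genes, 0 to 3 Hox genes higher (3 without Mature replicate 7) and 5 to 7 lower. The share above 20% held 1 ALL mouse and gave no ALL value. In ALL against Middle-aged, genes called were 2 with DESeq2, 4 with the likelihood ratio test and 1 below the 20% share, beside 0. Leaving out each mouse gave 0 to 1 genes (1 without ALL replicate 3) and 0 Hox genes. In ALL against Mature, genes called were 1696 with DESeq2 and 401 below the 20% share, beside 1087. The higher Hox count, 1, was 2 with DESeq2, the likelihood ratio test and the mitochondrial covariate, and 0 with library size alone, no filter or below the share. The lower Hox count, 2, was 1 with DESeq2 size factors, library size alone, no filter, only the 2 groups and below the share, and 0 without Mature replicates 5 and 7. Leaving out each mouse gave 430 to 1096 genes (430 without ALL replicate 3), 0 to 2 Hox genes higher and 0 to 2 lower. The cause of these shifts was not tested.

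Replicate numbers are shared by the groups. Same-numbered mice had a median correlation of 0.06 in their deviations over 14 pairs, 5 of them over 0.1. Other pairs of mice from different groups had a median of −0.006 over 80 pairs, 9 of them over 0.1. Whether the numbers mark something that the mice share was not tested. With the replicate block, 2 Hox genes were higher and 6 lower in Middle-aged against Mature, none differed in ALL against Middle-aged, and in ALL against Mature 615 genes were called with 0 Hox genes higher and 0 lower.

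The precision differed between genes. The logFC of Middle-aged against Mature had an SE of 0.19 to 0.49 for HoxB genes, measured with few counts, and 0.067 for Hoxc10. Hoxd3 had an SE of 0.49, its counts running from 0 to 41 across Middle-aged mice and from 20 to 78 across Mature mice, and Hoxa2, of like mean level, had 0.20.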

Other observations

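The ratio of count to TPM within a library gives, on a relative scale, the transcript length that the authors' TPM implies for a gene. Between the lowest and the highest mouse this length differed 2.08-fold for Hoxc6, 1.94-fold for Hoxa3, 1.75-fold for Hoxb3, 1.56-fold for Hoxb2 and 1.496-fold for Hoxc4. For Hoxc9, Hoxc10 and Hoxc11 it differed 1.01-fold.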
